A study of Rattus norvegicus with 8 samples.

Results

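The 7 subunits of respiratory complex I that are encoded on mitochondrial DNA were examined in rat spinal cord. They are Mt-nd1 (ENSRNOG00000030644), Mt-nd2 (ENSRNOG00000031033), Mt-nd3 (ENSRNOG00000033615), Mt-nd4 (ENSRNOG00000029707), Mt-nd4l (ENSRNOG00000031053), Mt-nd5 (ENSRNOG00000029971) and Mt-nd6 (ENSRNOG00000029042). They were taken by Ensembl rat ID, 7 of the 32883 genes in the count table. The tissue was upper spinal cord outside the lesion, from rats of the outbred Sprague Dawley strain. Both groups had a spinal hemisection, a cut through one side of the cord, at the ninth thoracic segment (T9), and both were sampled 23 days afterwards. The 4 trained samples came from rats given training after the injury and the 4 untrained samples from rats without it. Because the controls carried the same injury, the comparison is of training after hemisection, and no uninjured group was analysed here. The kind of training is not given in the sources used here, nor whether each sample is a separate animal, so p-values measure the spread between these samples. The deposited table gives no gene symbols, so the tissue could not be checked against cell-type markers.

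Complex I, or NADH dehydrogenase, is the entry point of the respiratory chain. It passes electrons from NADH to ubiquinone and pumps protons across the inner mitochondrial membrane, which drives ATP synthesis. Most of its subunits come from nuclear genes, and the 7 mitochondrial ones lie in its membrane arm. Mt-nd1 helps form the site where ubiquinone is reduced, Mt-nd2, Mt-nd4 and Mt-nd5 are the antiporter-like subunits of the proton path, and the small subunits Mt-nd3, Mt-nd4l and Mt-nd6 lie between them. Mitochondrial transcripts are abundant in nervous tissue, which depends on oxidative metabolism.

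Libraries were made by CEL-Seq2, which primes on the poly(A) tail and tags each molecule with a short random barcode, the unique molecular identifier (UMI), so that a count stands for a tagged 3' end and not for a length of transcript. Library totals were 179264 to 298262 counts in untrained and 141737 to 216603 counts in trained samples. The trained library was the shallower one at each of the 4 sample numbers, at 0.642 to 0.791 of the untrained total. Samples 1 and 2 of each group were deeper (mean totals 244882 and 252256) than samples 3 and 4 (177104 and 160500). The same-number samples of the 2 groups deviated together (correlations across genes 0.27 to 0.51), and the number was therefore also fitted as a block. Levels below are in CPM, counts scaled to a common library size. For a gene at 0, the upper limit that 3 counts set was 10.1 to 21.2 CPM by library, for counting error only.

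Together the 7 genes held 4.16%, 3.94%, 6.22% and 6.11% of all counts in untrained samples 1 to 4 and 5.74%, 4.35%, 7.15% and 7.05% in trained samples 1 to 4. The group means were 5.11% ± 1.23 without training and 6.07% ± 1.32 with it (SD, n = 4), and the groups overlapped. The share was higher in samples 3 and 4 than in samples 1 and 2 within each group. As raw sums the order was the other way: 10954 to 12531 counts without training and 9428 to 10988 with it. The groups overlapped by a narrow margin there, since untrained sample 4 (10954) lay under trained sample 1 (10988).

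Mt-nd1 had the second-highest mean count of all genes (rank 2). It had 3602, 3774, 3816 and 3361 counts in untrained samples 1 to 4 and 3449, 3355, 3657 and 3196 counts in trained samples 1 to 4. Its highest library exceeded its lowest by a factor of only 1.19, although the library totals differed far more. Sample 3 was the highest and sample 4 the lowest in untrained tissue, and the same was so in trained tissue.

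Among the antiporter-like subunits, Mt-nd4 (rank 4) had 3151, 3113, 3582 and 3369 counts in untrained samples and 2991, 2613, 3455 and 3138 in trained samples, in order of sample number. Mt-nd2 (rank 7) had 3028, 2332, 2520 and 2465 counts without training and 2646, 1866, 1997 and 2043 with it. Mt-nd5 (rank 17) had 1283, 1220, 1104 and 1025 counts without training and 872, 906, 670 and 1020 with it. The highest trained count of Mt-nd5 (1020) lay just under its lowest untrained count (1025), and for Mt-nd2 and Mt-nd4 the groups overlapped. These counts are not scaled for depth, and the trained library was the shallower one at each number. In CPM the groups overlapped for Mt-nd5 too. How many of all genes were set apart in this way as raw counts was not examined.

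In counts, the small subunits ran from among the highest of all genes to nearly none. Mt-nd3 (rank 19) had 1303, 898, 1494 and 720 counts in untrained and 1013, 684, 1149 and 585 counts in trained samples, and sample 3 was the highest and sample 4 the lowest in both groups. Mt-nd6 had 42, 9, 15 and 13 counts without training and 17, 2, 2 and 7 with it, in all 107 counts. Mt-nd4l had 4 counts in all: 1 in untrained sample 4, 2 in trained sample 2 and 1 in trained sample 4. It did not pass the filter on low counts of the main edgeR test. The fits without that filter, by DESeq2 and by edgeR, gave it adjusted p-values of 0.999 and 0.905 on these 4 counts. As background, Mt-nd4l and Mt-nd4 are read into 1 shared mRNA with Mt-nd4 at its 3' end, and Mt-nd6 is the only protein gene of mitochondrial DNA on the strand opposite to the others, facing Mt-nd5. Whether counting used strand is not given in the sources used here, so counts of Mt-nd6 and of antisense RNA from Mt-nd5 cannot be told apart, and nuclear copies of mitochondrial DNA could also share reads. Counts were not divided by length, and the ranks are ranks of counts. Since priming was on the poly(A) tail, an mRNA with little or no tail would be undercounted, and tails were not examined here.

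**Figure D1:**
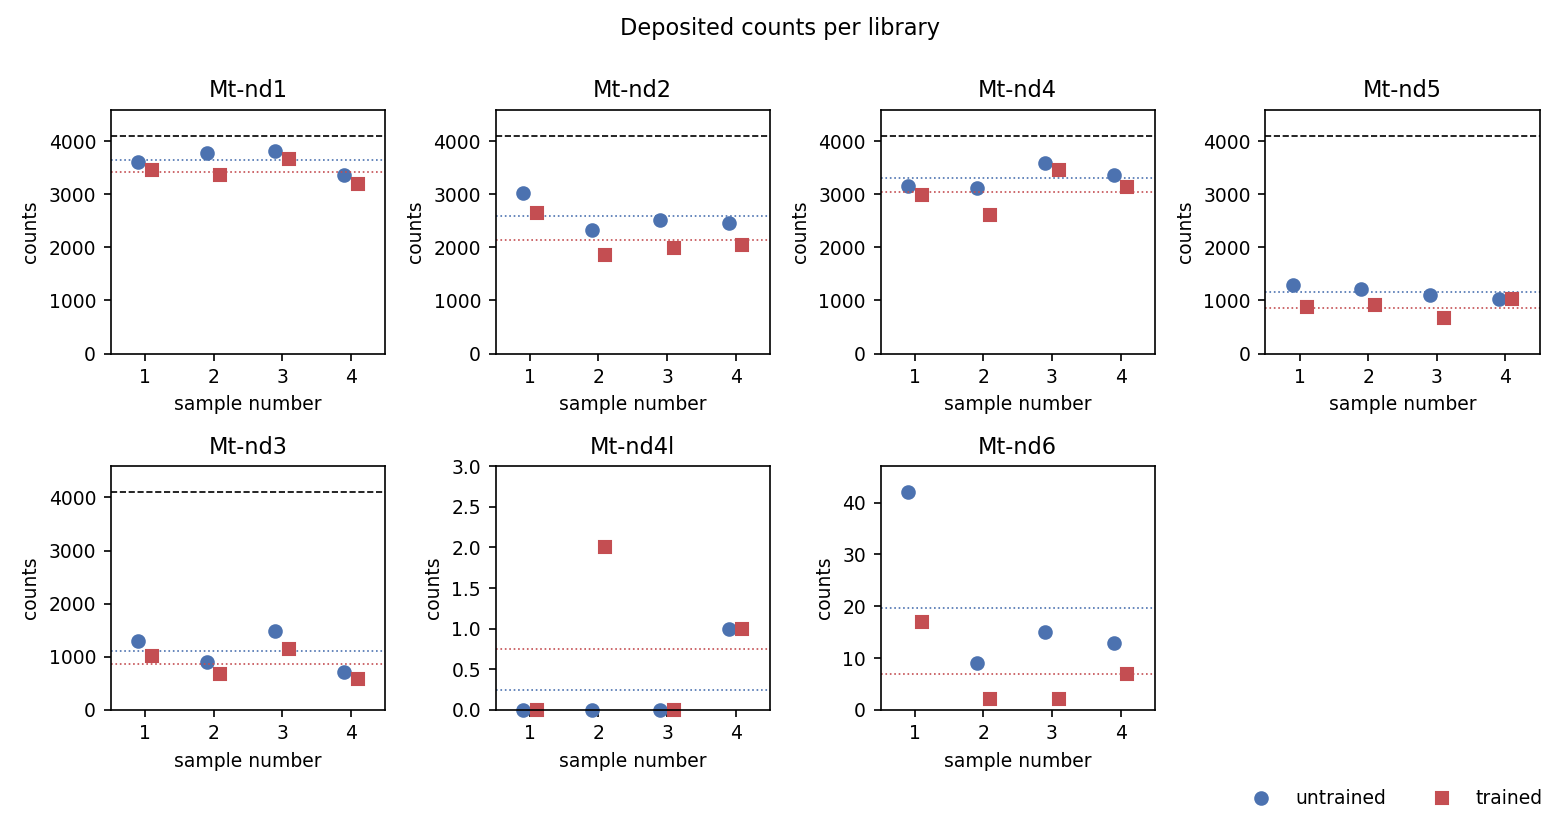
Deposited counts of each of the 7 genes (vertical axis, from 0) in samples 1 to 4 (horizontal axis) of the untrained (circles) and trained (squares) groups; dotted lines are group means, and the dashed line marks 4096. Mt-nd1 reached 3816 in untrained sample 3, Mt-nd3 was highest in sample 3 of both groups, and Mt-nd4l was at 0 to 2.

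The counts of the abundant members lay near the top of the table's range. No gene exceeded 4012 counts in any library, and 4096 is the number of different barcodes that 6 random bases can form, though the UMI length is not given in the sources used here. Measured against 4096, Mt-nd1 reached 93.2%, Mt-nd4 87.5% and Mt-nd2 73.9% in their highest library, while Mt-nd3 and Mt-nd5 reached 36.5% and 31.3%. If molecules share barcodes at random under such a limit, a 2-fold rise in molecules from the mean level would raise the count 1.13-fold for Mt-nd1, 1.21-fold for Mt-nd4 and 1.41-fold for Mt-nd2. The same rise would show as 1.76-fold for Mt-nd3 and 1.75-fold for Mt-nd5. The differences with training, those among sample numbers and the composition of the family are therefore also given with counts corrected for a ceiling of 4096, an assumption and not a stated property of these libraries.

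Over the 8 libraries, counts of the abundant members rose little or not at all with library total, which also differed by sample number. The slope of log2 count on log2 library total over the 8 libraries, where 1 means proportional, was 0.12 for Mt-nd1, -0.09 for Mt-nd4, 0.32 for Mt-nd2, 0.45 for Mt-nd3 and 0.54 for Mt-nd5. It was 1.84 for Mt-nd6, on 2 to 42 counts. Over the 251 genes averaging 100 to 300 counts the median slope was 1.21. Over the 14 other genes averaging at least 1000 counts it was 0.28, and over the 4 members that abundant it was 0.22. With corrected counts these medians were 0.62 and 0.52, and the slopes were 0.45 for Mt-nd1, -0.15 for Mt-nd4 and 0.59 for Mt-nd2. These slopes do not separate depth from sample number. Within numbers 1 to 4 the trained-to-untrained ratio of library totals was 0.642, 0.752, 0.758 and 0.791. The ratio of counts was 0.777, 0.762, 0.769 and 0.8125 for Mt-nd3 and 0.958, 0.889, 0.958 and 0.951 for Mt-nd1.

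**Figure D2:**
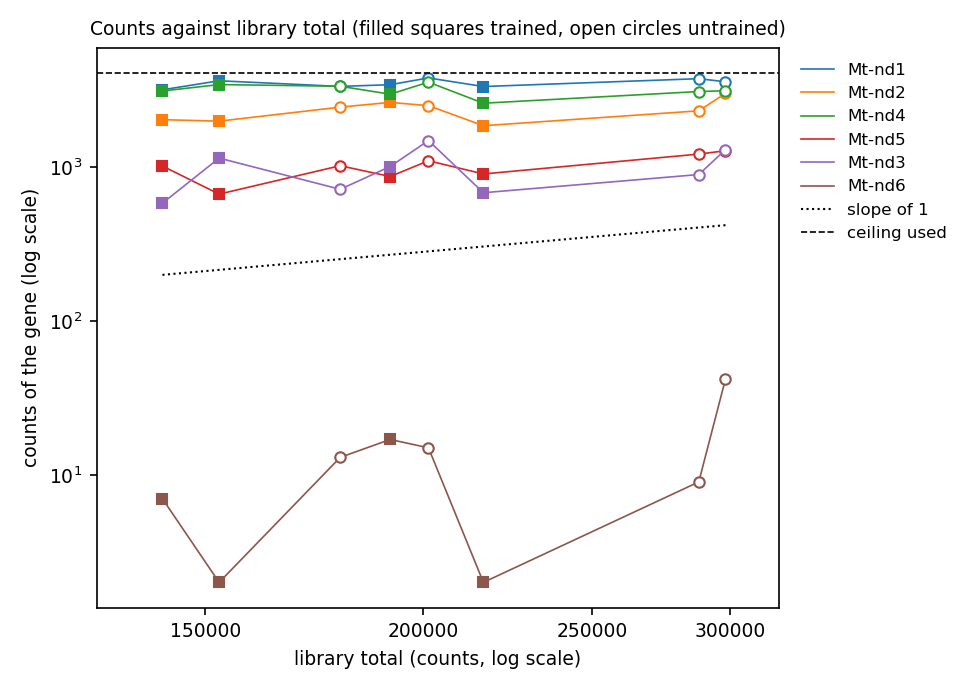
Counts of 6 genes (vertical axis, log scale) against library total (horizontal axis, log scale) in 8 libraries; filled squares are trained, open circles untrained, the dotted line has a slope of 1, and the dashed line marks 4096. The lines of Mt-nd1 and Mt-nd4 are nearly flat, with slopes of 0.12 and -0.09.

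Training was compared with edgeR's quasi-likelihood test over 3016 genes, scaled by TMM, and levels are in CPM of the scaled library. None of the 6 members tested passed an adjusted p under 0.05, against 0 of 3016 genes (0%), and each of the 6 had an adjusted p of 0.999 (edgeR, Benjamini-Hochberg). At an unadjusted p under 0.05 there were 0 of 6 members and 1.69% of all genes by edgeR. DESeq2 and limma voom called no member and no other gene, with 60 of 12539 and 53 of 3016 genes at an unadjusted p under 0.05. Of the 6 members, 5 had a fitted log2 fold change above 0, with a median over the 6 of 0.19, against -0.005 over all genes tested, of which 48.9% lay above 0. For the 14 other genes averaging at least 1000 counts the median was 0.27, with 13 of them above 0. With the sample number as a block, the medians of the members and of these 14 genes were 0.19 and 0.26 as counted. Above 0 were then 5 of 6 members and 14 of the 14 genes. With corrected counts and the block they were 0.09 and 0.13, with 5 of 6 members and 11 of the 14 genes above 0.

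Mt-nd1 was at 12412, 13807, 22163 and 21818 CPM in untrained samples 1 to 4 and at 20609, 16640, 29037 and 26827 CPM in trained samples 1 to 4. The means were 17550 ± 5161 CPM without and 23278 ± 5685 CPM with training (SD, n = 4; log2 fold change 0.41, SE 0.27, 95% interval -0.17 to 0.99). The trained sample was the higher one at all 4 numbers, and the groups overlapped. How many of all genes went the same way at all 4 numbers was not examined, here or for the members below. With the sample number as a block the adjusted p of Mt-nd1 was 0.770 over all samples (edgeR). In blocked fits chosen after the data were seen, it was 0.0384 without the samples numbered 1 (log2 fold change 0.33), where edgeR called 4 of 2950 genes (0.136%), and 0.697 to 0.968 without those numbered 2, 3 or 4. With corrected counts the log2 fold change was 0.21 (95% interval -0.50 to 0.92), and the trained sample was higher at 3 of 4 numbers.

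Mt-nd4 was at 10858, 11389, 20804 and 21870 CPM without training and at 17872, 12960, 27433 and 26341 CPM with it. Its log2 fold change was 0.38 (SE 0.31, 95% interval -0.27 to 1.03), and 0.25 with corrected counts. As for Mt-nd1, samples 3 and 4 of each group were the highest of the group, and the trained sample was the higher one at all 4 numbers as counted and at 3 of 4 after correction.

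Mt-nd2 was at 10434, 8532, 14636 and 16002 CPM without training and at 15811, 9255, 15856 and 17149 CPM with it. The log2 fold change was 0.23 (SE 0.27, 95% interval -0.34 to 0.80). The trained sample was the higher one at 4 of 4 numbers as counted but at 1 of 4 after correction, where the log2 fold change was 0.08.

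Mt-nd5 was at 4421, 4463, 6412 and 6654 CPM without training and at 5211, 4494, 5320 and 8562 CPM with it, a log2 fold change of 0.10 (SE 0.25, 95% interval -0.43 to 0.63). The trained sample was higher at 3 of 4 numbers as counted and at 2 of 4 after correction, where the log2 fold change was 0.05. Trained sample 4 was the highest of all, and without it the log2 fold change was -0.13.

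Mt-nd3 was at 4490, 3285, 8677 and 4674 CPM without training and at 6053, 3393, 9123 and 4911 CPM with it. Its log2 fold change was 0.15 (SE 0.32, 95% interval -0.53 to 0.83). The values followed the sample number and lay close together between groups, at trained-to-untrained ratios of 1.35, 1.03, 1.05 and 1.05 for numbers 1 to 4. With corrected counts the log2 fold change was 0.10, and the trained sample was higher at 3 of 4 numbers instead of 4. Without trained sample 3 the log2 fold change was -0.14, and without untrained sample 2 it was -0.01.

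Mt-nd6 was the 1 member tested with a fitted value below 0. It was at 145, 32.9, 87.1 and 84.4 CPM without training and at 102, 9.92, 15.9 and 58.8 CPM with it (log2 fold change -0.92, SE 0.56, 95% interval -2.10 to 0.25). The trained sample was lower at 4 of 4 numbers, and the groups overlapped. Trained samples 2 and 3 rest on 2 counts each. The log2 fold change was -0.49 without untrained sample 1, -0.51 without trained sample 2 and -1.76 without trained sample 1.

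**Figure D3:**
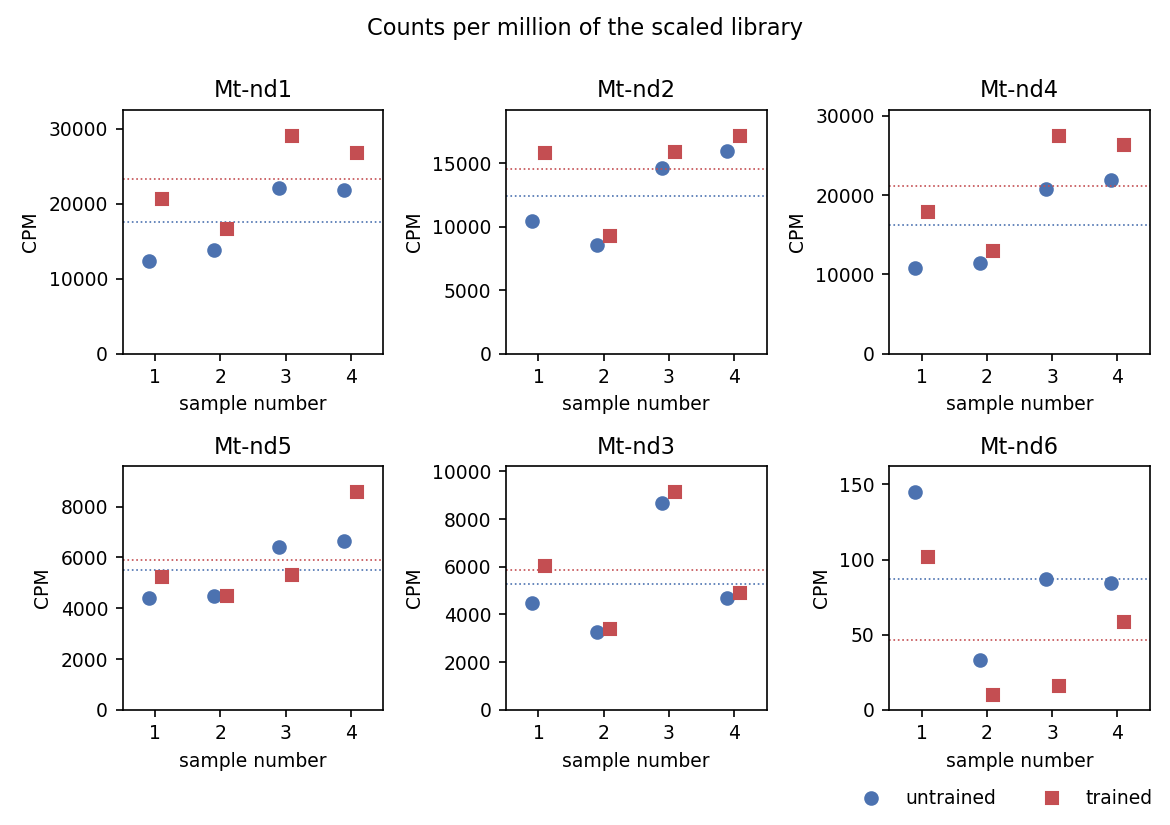
Level of 6 genes in CPM (vertical axis, from 0) in samples 1 to 4 (horizontal axis) of the untrained (circles) and trained (squares) groups; dotted lines are group means. For Mt-nd1 and Mt-nd4 samples 3 and 4 lie above samples 1 and 2 in both groups, and for Mt-nd3 sample 3 stands at 8677 and 9123 CPM.

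With the sample number as a block the fitted fold changes barely moved and their errors fell. No member and no other gene passed an adjusted p under 0.05 (0% of 3016 by edgeR). At an unadjusted p under 0.05 there were 3 of 6 members, against 5.11% of all genes: Mt-nd1 (fitted at 0.42 on the log2 scale, SE 0.13, adjusted p = 0.770 by edgeR), Mt-nd4 (0.39, SE 0.13, adjusted p = 0.770) and Mt-nd6 (-0.92, SE 0.34, adjusted p = 0.863). With corrected counts and the block there was 1 of 6, Mt-nd6 (-0.91, SE 0.34, adjusted p = 0.926 by edgeR), against 4.78% of all genes. Mt-nd1 was then at 0.21 (SE 0.17, 95% interval -0.14 to 0.57) and Mt-nd4 at 0.25 (SE 0.16, 95% interval -0.09 to 0.60). The intervals of the blocked fit for Mt-nd2, Mt-nd3 and Mt-nd5 lay within 0.51 of 0 on the log2 scale as counted. In bulk tissue, a different number of cells of a type and a different amount of RNA per cell cannot be told apart.

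**Figure D4:**
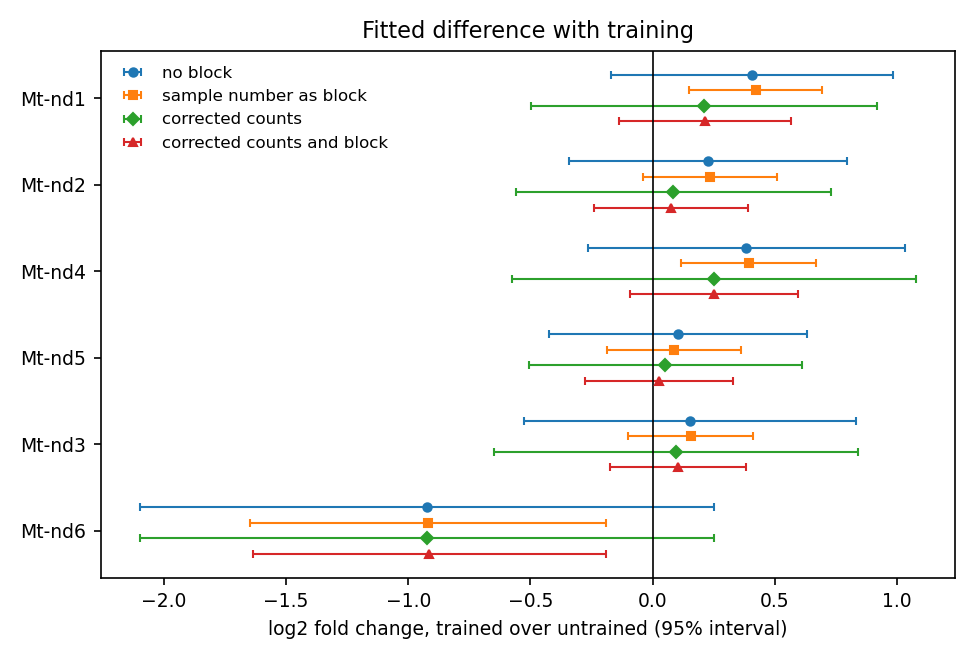
Fitted log2 fold change with training (horizontal axis; 0 means no difference) with its 95% interval for 6 genes, without and with the sample number as a block and with counts as deposited or corrected for a ceiling of 4096. The value of Mt-nd1 is 0.41 as counted and 0.21 with the correction, and Mt-nd6 stays near -0.92 with a wide interval.

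The members differed among the sample numbers. In a fit with number and group, all 6 members tested passed an adjusted p under 0.05 for a difference among the 4 numbers (edgeR quasi-likelihood F test), against 381 of 3016 genes (12.6%). Mt-nd3 had the lowest adjusted p (0.00154), followed by Mt-nd4 (0.00541), Mt-nd6 (0.0173), Mt-nd1 and Mt-nd2 (0.0205 each) and Mt-nd5 (0.0358). With corrected counts 5 of 6 passed, against 12.8% of all genes, and Mt-nd5 did not (adjusted p = 0.0550 by edgeR).

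These calls depended on single libraries. Without untrained sample 2, untrained sample 4, trained sample 2 or trained sample 4, edgeR called 2, 3, 1 and 2 of the 6 members, where it called 123, 99, 122 and 65 of all genes tested (3.88%, 3%, 3.87% and 1.95%). Without untrained sample 3 or trained sample 3 it called 5 and 4 members, and 321 and 253 genes (10.1% and 7.57%). Without untrained sample 1 or trained sample 1 it called 6 members each, and 529 and 543 genes (16.8% and 16.4%). Mt-nd3 was called in each of the 13 alternatives run, its highest adjusted p being 0.0291 without trained sample 2. Mt-nd4 was called in 12 of 13, Mt-nd2 in 8 of 13, Mt-nd1 and Mt-nd5 in 7 of 13 each, and Mt-nd6 in 9 of 12.

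By number, Mt-nd3 averaged 5272, 3339, 8900 and 4792 CPM over the trained and untrained sample of numbers 1 to 4, a span of 2.67-fold from number 2 to number 3, and of 2.92-fold with corrected counts. Mt-nd1 averaged 16511, 15224, 25600 and 24323 CPM and Mt-nd4 14365, 12174, 24119 and 24105 CPM, both higher at the shallower numbers 3 and 4. With corrected counts their spans went from 1.68-fold to 1.89-fold and from 1.98-fold to 2.63-fold. Mt-nd2 (13123, 8893, 15246 and 16575 CPM) and Mt-nd5 (4816, 4478, 5866 and 7608 CPM) were lowest at number 2 and highest at number 4, also with corrected counts. Mt-nd6 averaged 123, 21.4, 51.5 and 71.6 CPM and so was highest at number 1. What the number stands for is not given in the sources used here, and the part of depth in these differences was not tested beyond the values above.

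The composition of the family does not depend on how libraries are scaled. As counted, Mt-nd1 took 29.0% to 35.6% of the summed counts in a library, Mt-nd4 25.4% to 31.6%, Mt-nd2 18.3% to 24.4%, Mt-nd3 5.86% to 11.9% and Mt-nd5 6.13% to 10.8%. Mt-nd3 took 9.86%, 7.58%, 11.2% and 6.21% on average at numbers 1 to 4, and in each group sample 3 had the largest and sample 4 the smallest share. Mt-nd2 took its largest share at number 1 (24.2%) and its smallest at number 3 (19.2%). With corrected counts Mt-nd1 took 35.4% to 46.96% and Mt-nd3 3.76% to 6.997%, and Mt-nd3 was again highest at number 3 and lowest at number 4.

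Between groups, the mean share of Mt-nd1 was 30.9% ± 1.76 without and 33.1% ± 1.87 with training (SD, n = 4), and that of Mt-nd5 was 9.81% ± 0.889 and 8.47% ± 1.83. With corrected counts those of Mt-nd1 were 40.2% ± 5.14 and 40.96% ± 3.71. By number, Mt-nd1 took 29.0%, 33.3%, 30.5% and 30.7% as counted without training and 31.4%, 35.6%, 33.5% and 32.0% with it. With corrected counts its trained share was the lower one at number 2 (46.96% without and 45.4% with training) and the higher one at the other numbers. For Mt-nd5 as counted, the trained share was lower at numbers 1 to 3 and higher at number 4. The groups overlapped in each of these shares, and no test was run on them.

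**Figure D5:**
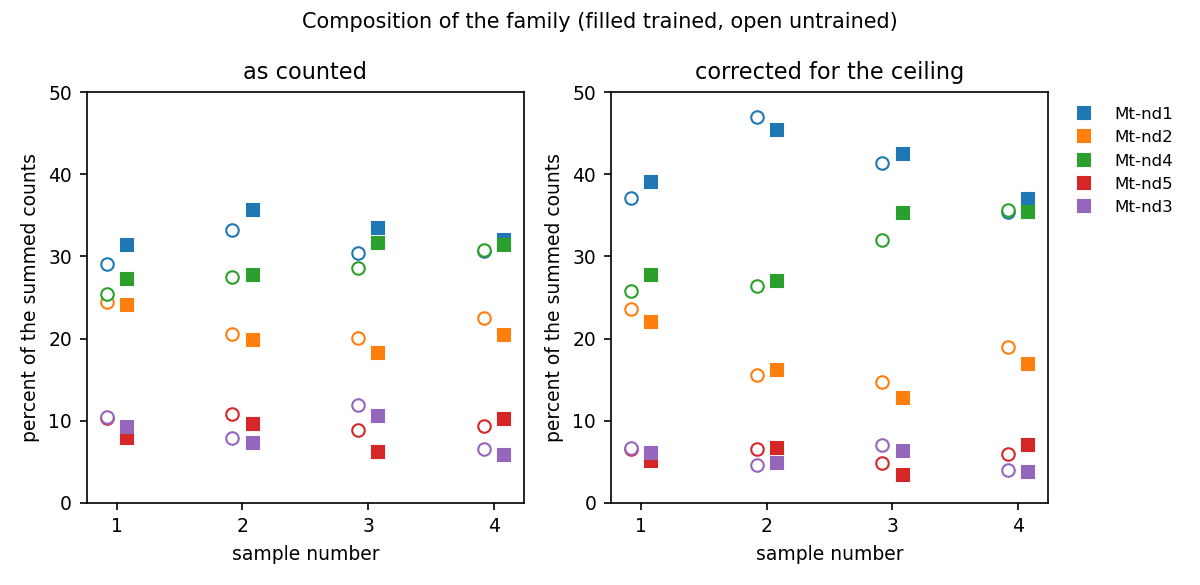
Percent of the summed counts of the family (vertical axis) taken by 5 genes in samples 1 to 4 (horizontal axis), as counted (left) and corrected for a ceiling of 4096 (right); filled squares are trained, open circles untrained. Mt-nd3 has its largest share in sample 3 of both groups, 11.9% and 10.5% as counted.

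The profile of the summed family over the 8 samples was compared with every other gene tested, by the root mean square difference of centred log2 CPM as counted. Among members the difference from the summed profile was smallest for Mt-nd1 (0.09) and Mt-nd4 (0.11), larger for Mt-nd2 (0.14), Mt-nd5 (0.25) and Mt-nd3 (0.34), and largest for Mt-nd6 (1.05). The sum contains each member in proportion to its counts, and Mt-nd1 and Mt-nd4 are its largest parts. This order is therefore partly built in and does not show which members are most like the family. The nearest genes outside the family were ENSRNOG00000048273 (0.07) and ENSRNOG00000031979 (0.09), where the median of the 3010 other genes was 0.54. Both are abundant as well (rank 8 and rank 5 by mean count). They are among the 14 other genes averaging at least 1000 counts, whose median slope on library total was 0.28. The median difference of 0.54 covers genes of all levels, and 1754 of the 3016 genes tested averaged only 10 to 30 counts. Counting error is larger at such counts, and the median difference over the 14 abundant genes was not examined. The comparison was not repeated with corrected counts, and the part of depth and of a ceiling in the likeness was not tested.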

How the data were processed

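Whole-number counts per gene were deposited by the authors for 8 samples; per the file name they are UMI counts. Per the submitters' processing notes HISAT2 2.0.4, HTSeq 0.6.0 and the build Rnor_6.0 were used; none of the sources used here gives the UMI length, strand setting or annotation. Groups came from the labels. The rule for the members lists gene IDs and uses no measured value, but the family and the lists were chosen with earlier results of these data known. The members were named by that rule, and all 7 are reported; up to 2 other genes were named by likeness of profile. The planned pathway and marker lists were not used, since 0 IDs matched the gene table used here, and no sequence of a member was at hand.

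All genes were fitted in edgeR 4.0.16 (R 4.3.3): expression filter (minimum count 10, minimum total 15), TMM, quasi-likelihood F test, Benjamini-Hochberg adjustment over all genes tested, threshold 0.05, no covariate. Sample number was added as a block, because same-number samples correlated at 0.34, 0.40, 0.27 and 0.51 in their deviations from group means (limit 0.1). The labels do not say what the number means, so the pairing rests on the counts alone. Counts n were corrected for a ceiling K of 4096 as -K ln(1 - n/K), with totals recomputed. DESeq2 1.42.0, limma 3.58.1 voom, other scalings, no filter, thinning to 141737 counts and leaving out samples were alternatives. The edgeR script was tested on simulated data.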

Additional observations from a re-analysis of the deposited data

Results flagged for a closer look

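Of 14 sets of 4 values examined (CPM of the 6 members tested and the summed share, in each group), 1 had a value set apart from the remaining 3; by chance about 1 in 20 would. Mt-nd2 was at 9255 CPM (1866 counts) in trained sample 2, against 15811 to 17149 CPM in the other trained samples. Untrained sample 2 was also the lowest of its group for Mt-nd2, at 8532 CPM. With corrected counts trained sample 2 was at 10346 CPM, against 18413 to 21309 CPM in the other trained samples. The rule for flagging was not applied to corrected counts.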

How the results depend on the processing

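Alternatives that left out both samples of one number, or single samples in the fit among numbers, were chosen after seeing the data. For training, the count of 0 genes called moved to 6 with no filter on low counts, and to 4, 1 and 2 in fits with the replicate block without numbers 1, 2 and 4; of these calls, 1 was a member (Mt-nd1, without number 1, log2 fold change 0.33). The replicate block with all samples called 0 genes and changed no member's call. Mt-nd1, Mt-nd2 and Mt-nd4 kept their direction in 22 of 22 alternatives each and Mt-nd6 in 20 of 20. Mt-nd3 turned in 2, with leave-one-out values of -0.14 to 0.50. Mt-nd5 turned in 3, at -0.0051 with no filter, -0.00034 in the block without number 4 and, among leave-one-out values of -0.13 to 0.22, without trained sample 4. Among sample numbers, the 381 genes called moved to 572 with no filter, and to 65 to 543 when single samples were left out; the members called ranged from 1 to 6. The summed share of the 7 members moved with the ceiling correction to 8.42% without and 9.23% with training. The cause of these shifts was not tested. Mt-nd6 was not tested in the thinned counts or without number 1, where it failed the filter, and counts of 2 to 42 limit its precision.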

Other observations

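The count of Mt-nd3 in the trained library was a near-constant part of that in the untrained library of the same number, at 0.777, 0.762, 0.769 and 0.8125 for numbers 1 to 4, while its level differed 2.67-fold among the numbers. For Mt-nd5 the corresponding ratios were 0.680, 0.743, 0.607 and 0.995. The narrow range was not particular to Mt-nd3: the ratios were 0.889 to 0.958 for Mt-nd1, 0.792 to 0.874 for Mt-nd2 and 0.839 to 0.965 for Mt-nd4. For Mt-nd6, on few counts, they were 0.133 to 0.538. The ratios of library totals were 0.642, 0.752, 0.758 and 0.791.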
